A study of Rattus norvegicus with 20 samples.

Results

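Kidneys collected on day 6 from rats given aristolochic acid I (AAI) were compared with kidneys collected on the same day from rats given vehicle. The members are the 10 arrays whose titles name day 6 treated or control rat kidney, 5 in each group, of 20 arrays in the study. All rats were male Wistar rats that weighed 80 to 100 g. The AAI group received 40 mg AAI per kg intraperitoneally and the vehicle group received PEG400 mixed with water on the same schedule. Total RNA of each kidney was labelled with Cy3 and hybridised to 1 Agilent rat microRNA (miRNA) array. The labels do not say that the kidneys of a group came from different rats, so the p-values below measure only the spread between samples. In the main fits (limma) that spread is pooled over all 20 arrays of the study, including those of AAI day 2 and AAI day 4.

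AAI is a plant nitrophenanthrene acid that is taken up by proximal tubule cells, where its reduced metabolites form DNA adducts, and it is known to cause acute tubular necrosis. A miRNA is cut from a hairpin precursor with a 5p and a 3p arm, and represses transcripts that pair with its seed, the bases 2 to 8 from its 5′ end. DNA damage activates p53, which induces transcription of the miR-34 genes, while miR-21 is known to rise in injured kidney and miR-192 and miR-194 are abundant in tubular epithelium.

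The mature sequences of the miRNAs on which the results turn are given from RefSeq (GRCr8), 5′ to 3′ with the seed in capitals. Of 262 tested miRNAs, 232 matched a mature sequence by name, as did 62 of the 68 called below, 18 of the higher and 44 of the lower ones. The miR-34 members are shown first because all 3 share a seed and rose.
miR-34a-5p: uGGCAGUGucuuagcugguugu
miR-34b-5p: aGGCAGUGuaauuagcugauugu
miR-34c-5p: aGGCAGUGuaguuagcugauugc
miR-34b-5p and miR-34c-5p differ at 2 of 23 bases. The miR-21 hairpin follows with both mature arms in capitals, because the rise of its arms differed in size.
Mir21 hairpin: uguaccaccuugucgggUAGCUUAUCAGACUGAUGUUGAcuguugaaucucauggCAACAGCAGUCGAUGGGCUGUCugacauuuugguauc
The next 2 sequences have the same seed but changed in different ways, miR-146a-5p being called lower and miR-146b-5p not called. They differ at 2 bases over the 22 of the shorter one.
miR-146a-5p: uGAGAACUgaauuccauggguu
miR-146b-5p: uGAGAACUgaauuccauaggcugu
The last sequences are those of the largest fall, of the tubular miR-192 and miR-194 locus, and of miR-341 and miR-6216, which were higher in all AAI kidneys.
miR-451-5p: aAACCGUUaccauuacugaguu
miR-192-5p: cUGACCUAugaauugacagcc
miR-192-3p: cUGCCAGUuccauaggucacag
miR-194-5p: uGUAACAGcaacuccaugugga
miR-341: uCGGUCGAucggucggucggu
miR-6216: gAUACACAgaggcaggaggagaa

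The arrays detected 258 to 269 of 719 miRNAs in vehicle kidneys and 250 to 308 in AAI kidneys (264.6 ± 4.16 and 289.2 ± 23.1, SD, n = 5 each; two-sided exact permutation p = 0.0476, adjusted 0.0833 over 3 array measures). The 75th percentile of the fluorescence signal, by which each array was scaled, was 1.31 times as high in AAI kidneys (479.7 ± 96.3 against 366.7 ± 51.9, exact permutation p = 0.0556, adjusted 0.0833). AAI array 2 stood apart, with a percentile of 309 against 499 to 535 on the other 4, and 250 detected miRNAs. The labelling spike-in signal was 1261 ± 98.7 in vehicle and 1368 ± 146 in AAI kidneys (exact permutation p = 0.214, adjusted 0.214). Vehicle arrays 1 to 4 sat on slide 3, vehicle array 5 on slide 2 and all 5 AAI day 6 arrays on slide 1, so slide and group cannot be told apart within this comparison. No other group had arrays on slide 3. A fit with slide as a fixed block, used below as an alternative, therefore in effect sets AAI kidneys against vehicle array 5 alone. All 8 kidney tubule miRNAs listed as tissue markers were detected on all 10 arrays.

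By limma, 68 of 262 tested miRNAs were called at an adjusted p under 0.05 (26%), 19 higher (7.25%) and 49 lower (18.7%) in AAI kidneys. The higher changes were the larger ones. Their median log2 change was 1.28 and 12 were at least 2-fold, whereas the lower calls had a median of -0.35 and 1 was at least 2-fold. Of the 19 higher calls 15 were detected on all 10 arrays, and of the 49 lower calls 48. The other higher calls, miR-21-3p, miR-23a-5p, miR-551b-5p and miR-465-5p, were tested only because an AAI group had complete detection. All of these are among the 12, and the size of the higher changes without them was not tested. The median over all tested miRNAs was -0.11. The 2 groups did not overlap for 61 miRNAs (23.3%), 11 higher (4.20%) and 50 lower (19.1%). Each AAI array lay below all 5 vehicle arrays for 47 to 49 of the 49 lower calls and above all 5 for 14 to 18 of the 19 higher calls. The calls were chosen from the same arrays, so these counts describe them and are no separate support. AAI kidneys varied more among themselves: the SD over 5 arrays was larger than in vehicle for 207 of 262 miRNAs (79.0%), with a median SD of 0.21 against 0.13 log2 units. With normexp background correction 5 of the higher and 19 of the lower calls remained, and the 5 were miR-34a-5p, miR-21-5p, miR-6216, miR-29b-3p and miR-3473. This setting also adds an offset of 50 to each spot, which by construction pulls the changes of dim miRNAs toward 0. A call lost with normexp therefore cannot tell whether a dim miRNA changed. In this bulk tissue, fewer cells of a type and less of a miRNA per cell cannot be told apart.

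All 3 miR-34 members were called higher, and none of the 3 was called with slide as a fixed block. Levels are log2 of the miRNA signal over the 75th percentile of its array. miR-34a-5p, a p53-induced repressor of cell cycle and survival transcripts (rn4 probe position chr5:167187918-167187937), measured -2.78, -2.59, -2.36, -2.47 and -2.40 on vehicle arrays 1 to 5. On AAI arrays 1 to 5 it measured 0.82, -0.17, 0.43, -0.53 and 1.46. The lowest AAI kidney was thus above the highest vehicle kidney, with AAI array 5 the highest of all. Its change was 2.92 ± 0.37 log2 units (SE; 7.57-fold, 95% interval 4.40 to 13.0, limma adjusted p = 1.61e-05), and with normexp it was 1.78 (6.95e-05). With slide as a fixed block it was 1.96 and not called (0.0762, range over its alternatives 1.61e-05 to 0.308).

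The pair miR-34b and miR-34c is transcribed from 1 locus (rn4 probe starts 54422584 and 54422067 on chromosome 8), which in the RefSeq annotation lies within Hoatz. miR-34c-5p was at -4.82, -4.54, -4.58, -4.40 and -4.37 in vehicle and at -2.41, -3.68, -3.49, -4.08 and -2.65 in AAI kidneys. miR-34b-5p was at -4.66, -4.59, -4.52, -4.41 and -4.40 in vehicle and at -2.82, -3.64, -3.71, -4.20 and -2.70 in AAI kidneys. Neither overlapped between groups, and AAI arrays 1 and 5 were the highest for all 3 family members. The changes were 1.28 ± 0.28 for miR-34c-5p (adjusted p = 0.00286) and 1.10 ± 0.28 for miR-34b-5p (0.00658). With normexp background correction they were 0.22 and 0.16 and were not called, and with the total signal that the scanner software reports both were negative (-0.94 and -0.90). In the fit with slide as a fixed block they were 0.19 and 0.020 and not called (0.795 and 0.975).

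Both arms of miR-21, a miRNA known to rise in injured and proliferating tissue, were higher. miR-21-5p (rn4 chr10:74864519-74864538) measured 3.42, 3.35, 3.37, 3.30 and 3.46 in vehicle kidneys and 5.34, 4.48, 3.91, 3.76 and 4.98 in AAI kidneys. Vehicle kidneys spanned 0.16 log2 units and AAI kidneys 1.59, with no overlap. The change was 1.11 ± 0.24 (2.16-fold, interval 1.52 to 3.09, adjusted p = 0.00286). The opposite arm miR-21-3p measured -4.51, -4.98, -5.46, -5.78 and -5.14 in vehicle and -1.99, -2.18, -2.93, -3.03 and -1.70 in AAI kidneys. It was detected on 3 of 5 vehicle and 5 of 5 AAI arrays, so its change of 2.81 ± 0.32 (adjusted p = 1.61e-05) rests in part on vehicle values under detection. With normexp it was 0.29 and not called (adjusted p = 0.337, range over its alternatives 1.83e-07 to 0.337).

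**Figure D1:**
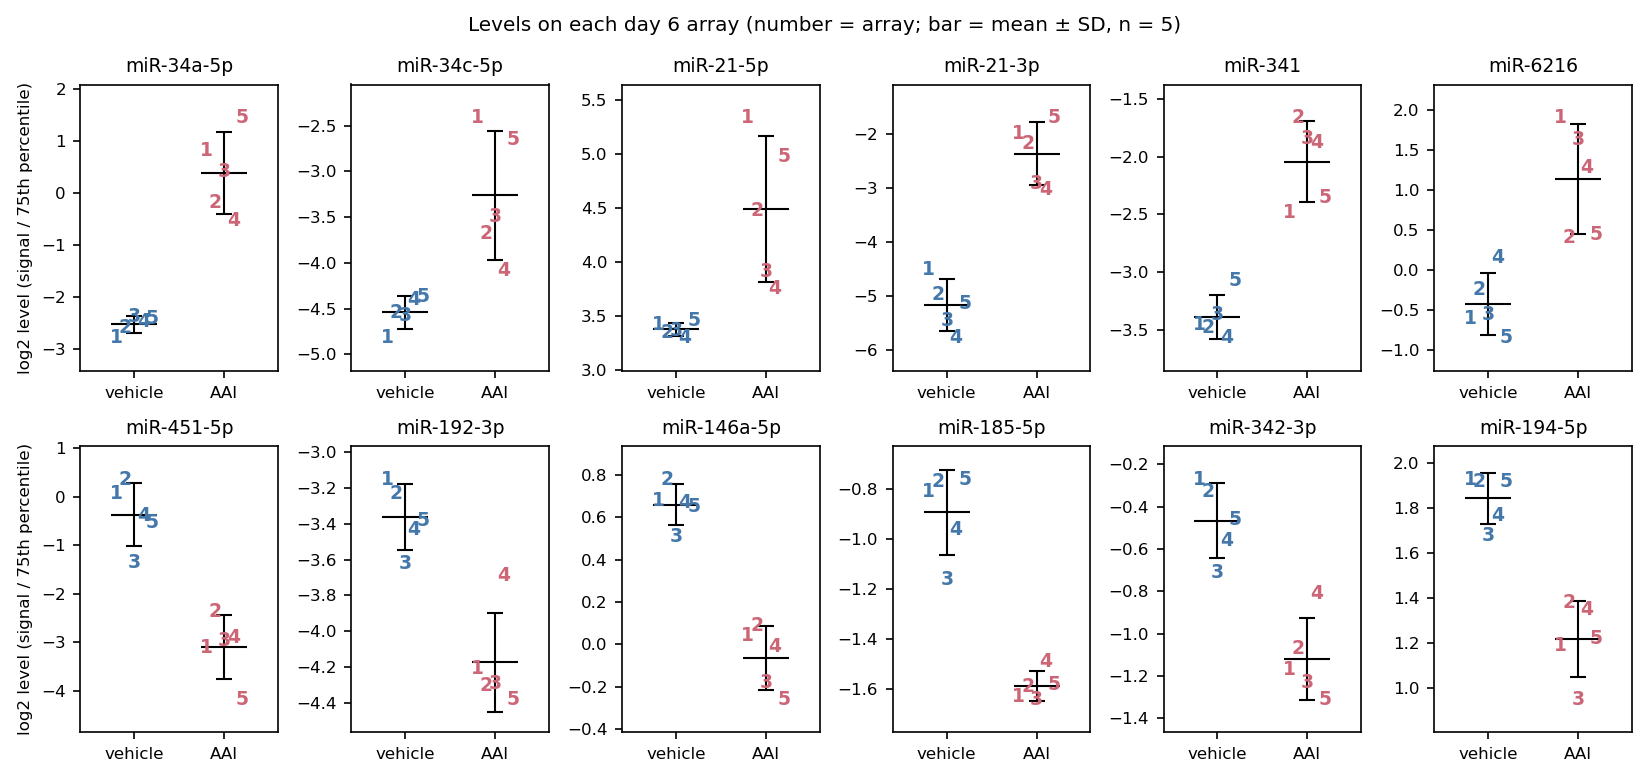
Log2 level (signal over the 75th percentile of the array) of 12 miRNAs on each of the 10 day 6 arrays, 6 called higher in the upper row and 6 called lower in the lower row, with a separate axis per miRNA. Digits are array numbers and bars are means ± SD (n = 5). For each of the 12 the AAI kidneys lie wholly above or wholly below the vehicle kidneys, and miR-21-5p spans 0.16 log2 units in vehicle against 1.59 in AAI kidneys. The 12 were picked from the calls of these same arrays. Over all 262 tested miRNAs the groups did not overlap for 61 (23.3%).

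Among the other higher calls, miR-341, from the imprinted Dlk1-Dio3 region (rn4 chr6:134203581-134203594), measured -3.45, -3.48, -3.37, -3.57 and -3.07 in vehicle kidneys. In AAI kidneys it measured -2.48, -1.66, -1.84, -1.88 and -2.35, all above vehicle (1.35 ± 0.22, adjusted p = 3.04e-04). With normexp its change was 0.39 and not called (0.109). Of the 7 tested miRNAs listed for that region, miR-341 was the 1 called (7.25% higher over all tested), and 23 of the 32 listed were detected on none of the 10 arrays. The list is not complete, since the probes of miR-667-3p (0.10) and miR-134-5p (0.75) lie among those of its members in rn4 and neither was called. miR-6216 measured -0.61, -0.25, -0.56, 0.16 and -0.85 in vehicle and 1.91, 0.41, 1.64, 1.29 and 0.44 in AAI kidneys, again without overlap (1.56 ± 0.34, adjusted p = 0.00286). miR-23a-5p, the opposite arm of the abundant miR-23a-3p, was detected on 0 of 5 vehicle and 5 of 5 AAI arrays. It passed the detection filter only through AAI groups. Its limma change was 2.92 ± 0.36 (adjusted p = 1.61e-05). With vehicle values raised to at least the lowest signal of any detected miRNA on their array, the estimate was 5.27-fold. That estimate has no interval and is not a guaranteed minimum. With normexp, whose offset pulls dim miRNAs toward 0, the change of miR-23a-5p was 0.053 and not called. miR-465-5p (1.62 ± 0.34, adjusted p = 0.00206) and miR-551b-5p (1.55 ± 0.27, 4.73e-04) were detected on 1 and 2 of 5 vehicle arrays and on all AAI arrays, and with normexp were 0.067 and 0.16 and not called. Along with miR-3562 and miR-489-3p below, they were chosen for mention after their values were seen.

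Several higher calls were smaller, and some ended when 1 array was omitted. miR-212-3p, a CREB-induced miRNA, rose by 0.65 ± 0.17 (adjusted p = 0.00772), while its seed mate miR-132-3p was at 0.72 ± 0.30 and was not called (0.0829; 0.44 without AAI array 1). miR-338-5p rose by 0.84 ± 0.20 (0.00503) but was -0.061 with normexp, -0.51 with the software's total signal and -1.15 in the authors' deposited table. miR-877 rose by 0.73 ± 0.22 (0.0201) and was not called when vehicle array 2 or 3 was omitted (0.0527 and 0.0520). With slide as a fixed block it was 1.51. The call of miR-3562 (0.67 ± 0.21) ended when vehicle array 3 (0.0576) or AAI array 3 or 4 (0.0644 and 0.0591) was omitted, and that of miR-489-3p (0.43 ± 0.13) when vehicle array 2 or 3 was (0.0609 and 0.0577). miR-489-3p was also negative with normexp (-0.087) and in the authors' deposited table (-2.60).

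miR-3473 was higher on AAI arrays 3 and 4 above all. It measured 0.30, 1.37, 1.37, 2.11 and 0.47 in vehicle and 2.25, 1.69, 4.62, 3.88 and 1.70 in AAI kidneys, and the groups overlapped. miR-3584-5p had the same shape, at -2.97, -2.42, -2.83, -2.13 and -3.42 in vehicle and -1.69, -2.47, 0.64, 0.08 and -2.47 in AAI kidneys. Their changes were 1.70 ± 0.53 (adjusted p = 0.0230) and 1.57 ± 0.53 (0.0333). Omission of vehicle array 1 (0.0700 and 0.0719), vehicle array 5 (0.0655 and 0.0848), AAI array 3 (0.0730 and 0.105) or AAI array 4 (0.0646 and 0.0932) ended both calls. The call of miR-3584-5p also ended when vehicle array 3 was omitted (0.0576). With slide as a fixed block the changes were 3.69 and 3.60, both called.

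AAI kidneys thus did not share 1 order across the higher calls. For 6 of the 19, namely miR-34a-5p, miR-34b-5p, miR-34c-5p, miR-21-5p, miR-21-3p and miR-18a-5p, the highest AAI arrays were 1 and 5. The mean of arrays 1 and 5 exceeded that of arrays 3 and 4 by 1.19, 1.19, 1.26, 1.33, 1.13 and 1.01 log2 units in these 6, against a median of 0.10 over all tested miRNAs. For 5 others, miR-3473, miR-3584-5p, miR-23a-5p, miR-338-5p and miR-3562, arrays 3 and 4 were the highest, with differences from -0.68 to -2.44. Arrays 3 and 4 were also the highest for 28 of the 194 miRNAs that were not called, and arrays 1 and 5 for 36. Among the 28 were miR-327, which had the widest span of AAI levels (4.07 log2 units), and miR-760-3p (3.48). Arrays 2 and 5 were the most frequent pair in these 194 and in the 49 lower calls, the highest for 72 and 18. Array 2, whose percentile was the lowest, lay a median of 0.12 log2 units above the other 4 over all tested miRNAs. miR-146b-5p, which was not called, had a span of 2.43 in AAI against 0.25 in vehicle kidneys and was highest on AAI arrays 1 and 5. Mention of miR-327 and miR-760-3p, like the grouping of arrays itself, was decided from these values. The grouping has no test, and the labels give no property that separates arrays 1 and 5 from 3 and 4.

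**Figure D2:**
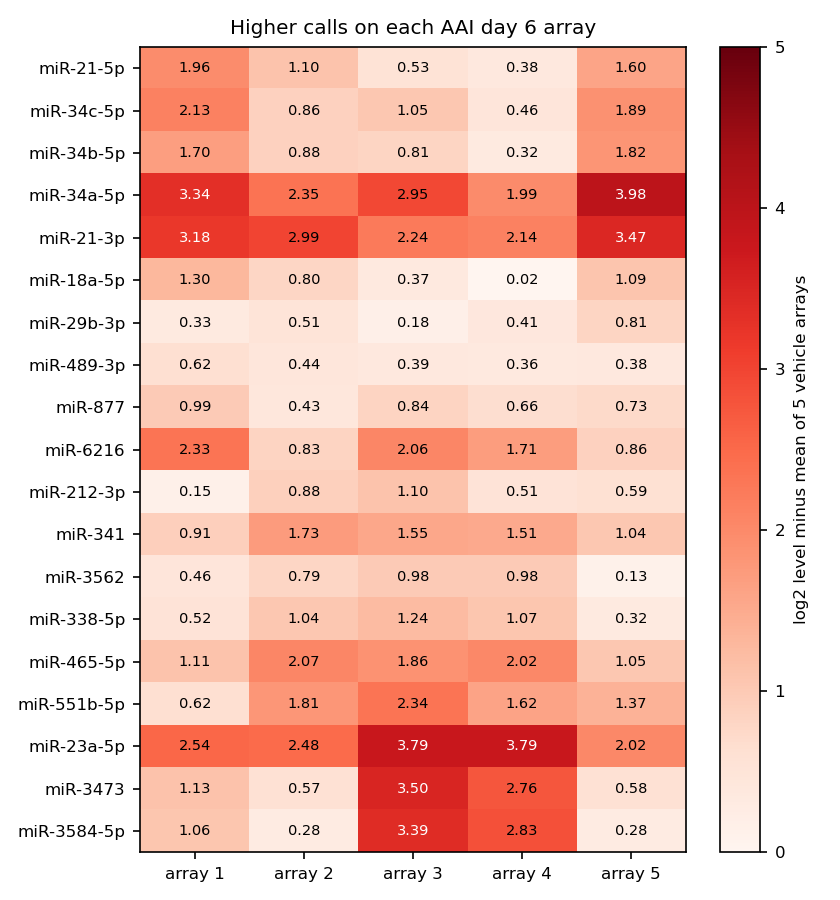
Log2 level on each AAI day 6 array minus the mean of the 5 vehicle arrays (colour and printed value) for the 19 miRNAs called higher, ordered by the mean of arrays 1 and 5 minus that of arrays 3 and 4. miR-21-5p and the miR-34 members at the top are highest on arrays 1 and 5, and miR-3473 and miR-3584-5p at the bottom on arrays 3 and 4.

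The largest fall was in miR-451-5p, a Dicer-independent miRNA made in maturing red cells (rn4 chr10:64129535-64129555). It measured 0.06, 0.36, -1.35, -0.38 and -0.54 in vehicle kidneys and -3.11, -2.36, -2.96, -2.89 and -4.17 in AAI kidneys. All AAI kidneys were below the lowest vehicle kidney, array 3, and the change was -2.73 ± 0.34 (6.62-fold lower, interval 4.06 to 10.8, adjusted p = 1.61e-05). It was the 1 lower call that stayed past the threshold without scaling (-2.36), and with normexp it was -1.40 (2.26e-04). Of the other erythrocyte miRNAs on the array, miR-144-3p, which is made from the same locus, was detected on 3 of 5 vehicle and 0 of 5 AAI arrays and was not tested, and miR-144-5p was detected on none. Whether the kidneys held different amounts of blood was not tested.

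The miRNAs of the miR-192 and miR-194 locus were lower, apart from miR-194-3p (0.11, not called). miR-192-3p measured -3.15, -3.23, -3.62, -3.43 and -3.38 in vehicle and -4.21, -4.30, -4.29, -3.69 and -4.38 in AAI kidneys (-0.81 ± 0.15, adjusted p = 6.19e-04). AAI array 4 was the closest to vehicle but still below it. The main arm miR-192-5p measured 2.60, 2.56, 2.26, 2.38 and 2.58 in vehicle and 1.80, 1.90, 1.76, 2.21 and 1.91 in AAI kidneys (-0.56 ± 0.13, 0.00446). miR-194-5p, from the same cluster and a second copy on chromosome 13, measured 1.93, 1.92, 1.68, 1.77 and 1.92 in vehicle and 1.19, 1.38, 0.95, 1.35 and 1.22 in AAI kidneys (-0.63 ± 0.13, 0.00226). None of the 3 overlapped between groups. Without scaling they were -0.44, -0.19 and -0.26 and were not called, and with normexp miR-192-3p was -0.25 and not called.

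Of 17 tested tubular and kidney-enriched miRNAs, 8 fell, 0 rose and 9 did not pass (limma), against 18.7% called lower over all tested miRNAs. The list median was -0.21, against -0.11 over all tested, and without scaling it was 0.16, with 12 of the 17 positive, against 0.26. Besides the 3 above these were miR-203a-3p (-0.57 ± 0.09), miR-204-5p (-0.42 ± 0.10), miR-30e-3p (-0.31), miR-196a-5p (-0.31) and miR-196b-5p (-0.33), the last 3 being positive without scaling (0.056, 0.055 and 0.040). miR-204-5p, an epithelial miRNA encoded in Trpm3, measured -2.26, -2.29, -2.59, -2.49 and -2.34 in vehicle and -2.81, -2.71, -3.02, -2.62 and -2.90 in AAI kidneys. The abundant miR-30 guide strands from miR-30a-5p to miR-30e-5p were between -0.21 and -0.028 and were not called. miR-10a-5p and miR-10b-5p, encoded in the Hox clusters, were at -0.10 ± 0.12 and -0.11 ± 0.10. None of the 5 members of the miR-200 family, which maintains the epithelial state, was called by limma, with values from -0.23 to 0.15. When slide was a fixed block, miR-200b-3p (-0.64, adjusted p = 0.0265) and miR-429 (-0.49, 0.0293) were called lower. The mean level of the 8 tubule markers was 0.78 to 0.82 on vehicle and 0.41 to 0.66 on AAI arrays. Of these 8 markers 4 were called lower and 4 were not called. Without scaling their median change was 0.095, with 5 of the 8 positive.

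Besides miR-451-5p, miR-146a-5p had the most significant fall. This NF-kB-induced brake on Toll-like receptor signalling (rn4 chr10:28476386-28476405) measured 0.68, 0.78, 0.51, 0.67 and 0.65 in vehicle and 0.04, 0.09, -0.18, -0.01 and -0.26 in AAI kidneys. Every AAI kidney was lower than every vehicle kidney, by a mean of 0.72 ± 0.09 log2 units (1.65-fold, interval 1.44 to 1.88, adjusted p = 1.61e-05). Its seed mate miR-146b-5p was at 0.80 ± 0.33 and was not called (0.0762; 0.40 without AAI array 1). miR-342-3p, encoded in Evl and abundant in lymphoid cells, measured -0.27, -0.33, -0.71, -0.56 and -0.46 in vehicle and -1.17, -1.07, -1.23, -0.81 and -1.31 in AAI kidneys (-0.65 ± 0.12, 5.83e-04). miR-185-5p, encoded in Tango2, measured -0.81, -0.77, -1.16, -0.96 and -0.76 in vehicle and -1.63, -1.59, -1.64, -1.49 and -1.58 in AAI kidneys (-0.69 ± 0.11, 3.04e-04), and here the AAI kidneys were the less variable group (SD 0.06 against 0.17). Without scaling these 3 falls were -0.35, -0.28 and -0.32 and were not called.

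Marker miRNAs of other cell types moved as follows. Of 6 tested leukocyte miRNAs, miR-146a-5p and miR-342-3p fell (18.7% lower over all tested) and 4 did not pass, among them miR-142-3p at -0.69 ± 0.27 (limma adjusted p = 0.0628), miR-223-3p at -0.17 ± 0.19 and miR-150-5p at 0.0051 ± 0.14. The mean level of the 6 ranged from -1.14 to -1.06 on vehicle and from -1.93 to -1.17 on AAI arrays, and the list median was -0.63, or -0.26 without scaling. Neither of the 2 endothelial miRNAs was called (median -0.17, with mean levels of 0.72 to 0.77 in vehicle and 0.40 to 0.83 in AAI kidneys), although miR-126a-3p was called lower with slide as a fixed block (-0.44, adjusted p = 0.0302). Of 5 stromal and smooth muscle miRNAs 1 was called lower, with mean levels of 0.14 to 0.33 in vehicle and -0.04 to 0.22 in AAI kidneys. That was miR-214-3p (-0.25 ± 0.08), which was 0.12 without scaling and was not called when vehicle array 2, 4 or 5 or AAI array 4 or 5 was omitted (0.0572 to 0.0859). Blocking slide ended its call (0.229) and gave miR-199a-3p a lower call (-0.64, 0.0302). Of 10 miRNAs typical of liver, muscle, brain and pancreas 3 were tested and 0 called by limma. The part of these cell types in the other changes was not tested.

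Of 14 tested miRNAs listed as raised in kidney injury, 5 rose and 2 fell, against 7.25% higher and 18.7% lower over all tested miRNAs. The list median was 0.47, and with slide as a fixed block it was -0.23, against -0.32 over all tested. Those that rose were miR-21-5p, miR-21-3p, miR-34a-5p, miR-212-3p and miR-18a-5p, and those that fell were miR-146a-5p and miR-214-3p. The list holds both arms of miR-21. Its members miR-21-3p and miR-132-3p, the latter not called, were tested only because an AAI group had complete detection, which favours a rise. miR-18a-5p, of the growth-promoting miR-17 cluster, rose by 0.71 ± 0.25 (adjusted p = 0.0408), was not called when vehicle array 1, 3, 4 or 5 or AAI array 1, 2 or 5 was omitted (0.0600 to 0.105), and was negative with slide as a fixed block (-0.30) and with the software's total signal (-1.85). It was the 1 of 11 tested members of the miR-17 cluster and its paralogs to be called, with a list median of 0.20. All 6 tested p53-induced miRNAs were called (26% over all tested), the 3 miR-34 members higher and miR-192-5p, miR-194-5p and miR-107-3p (-0.33 ± 0.08) lower, and miR-107-3p was 0.038 without scaling. The median of the 6 was 0.39, and with slide as a fixed block, where none of the miR-34 members was called, it was -0.34. In the miR-29 family, which represses collagen transcripts, miR-29b-3p rose by 0.44 ± 0.13 (0.0129) with overlapping groups, and was 0.14 and not called with slide as a fixed block (0.707), while miR-29a-3p was at 0.34 ± 0.13 (0.0628) and miR-29c-3p at -0.044 ± 0.10.

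Members that share a seed did not always share a call, and 26% of all tested miRNAs were called. Among the 232 tested miRNAs with a matched sequence, 25 seeds were carried by at least 2, of which 14 had a called member, 5 had every member called and 0 had calls in both directions. The 5 were the miR-34 members, which rose, and 4 groups that fell: the 3 miR-196 members (miR-196c-5p, miR-196b-5p and miR-196a-5p), miR-99b-5p with miR-100-5p, miR-125a-5p with miR-125b-5p, and miR-103-3p with miR-107-3p. These 9 falls were small, from -0.40 for miR-196c-5p to -0.19 for miR-125b-5p, and all but that of miR-196c-5p turned positive without scaling. The call of miR-125b-5p ended when vehicle array 1, 3 or 4 or AAI array 1, 3 or 4 was omitted (0.0576 to 0.0732).

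In the let-7 family, which represses growth-promoting transcripts, 3 of 8 fell (18.7% lower over all tested). let-7d-5p was at -0.35 ± 0.09, let-7e-5p at -0.39 ± 0.12 and let-7b-5p at -0.30 ± 0.09, and the list median was -0.25. With slide as a fixed block the list median was -0.695, against -0.32 over all tested. In that fit vehicle array 5 is in effect the only vehicle kidney. On that array let-7d-5p was above the other vehicle arrays (3.07 against 2.95 to 2.97). Without scaling let-7d-5p and let-7b-5p were positive and let-7e-5p was -0.018. The call of let-7b-5p ended when vehicle array 3 was omitted (0.0524), and that of let-7e-5p when vehicle array 3 (0.0523) or AAI array 3 or 4 (0.0596 and 0.0577) was. Of 4 miR-181 members, which share a seed, miR-181a-5p (-0.24 ± 0.07; 0.12 without scaling) and miR-181b-5p (-0.44 ± 0.09) fell, and miR-181c-5p and miR-181d-5p were at -0.041 and -0.20.

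The calls within the miR-15 and miR-16 and the miR-23, miR-27 and miR-24 families were near the threshold. miR-15b-5p (-0.28 ± 0.09) and miR-16-5p (-0.26 ± 0.09), neighbours in Smc4, fell. They were 2 of 9 tested members of the miR-15, miR-16 and miR-322 families, against 18.7% called lower over all tested miRNAs. The call of miR-15b-5p ended when vehicle array 1, 2 or 5 or AAI array 3, 4 or 5 was omitted (0.0507 to 0.0867). That of miR-16-5p ended on omission of vehicle array 1, 2, 4 or 5 or AAI array 3, 4 or 5 (0.0572 to 0.112). miR-23b-3p (-0.23 ± 0.08) and miR-27b-3p (-0.22 ± 0.08), neighbours in Aopep, fell, while their seed mates miR-23a-3p and miR-27a-3p were at -0.035 ± 0.095 and -0.053 ± 0.11. Both calls ended on omission of any 1 of the vehicle arrays or of AAI array 1, 3, 4 or 5 (0.0522 to 0.138 for miR-23b-3p and 0.0501 to 0.106 for miR-27b-3p). All 4 falls were positive without scaling, from 0.087 to 0.15.

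Neighbours in the genome, taken as probes within 10 kb of each other in rn4, were also compared. Over all tested miRNAs 18.7% were called lower. In the miR-194 and miR-192 cluster on chromosome 1 (209040091 to 209040343) 3 of 4 tested arms were lower. In the cluster of miR-99b, let-7e and miR-125a on the same chromosome (56486981 to 56487653) 3 of 5 were lower, and these were the 3 5p arms. The rn4 probe positions of miR-203a-3p (-0.57), an epithelial miRNA, and miR-203b-3p (-0.66 ± 0.13) overlap on chromosome 6, and both were lower. The name miR-203b-3p is that of the array, and RefSeq gives the name to a stretch that does not overlap miR-203a-3p, so which arm was measured is uncertain. With normexp miR-203b-3p was -0.26 and not called. miR-378b (-0.57 ± 0.09), which has 2 probe positions, 1 of them beside miR-378a-5p (-0.36), was also among the larger falls. miR-500-3p, encoded in Clcn5, fell by 0.56 ± 0.17 log2 units, and its call ended when AAI array 5 was omitted (0.0504). When slide was a fixed block, miR-500-3p was at -0.33 and was not called (0.519).

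The size of the lower group depended on how the arrays were scaled. Over the 262 miRNAs the median change was -0.11 with the 75th percentile, 0.26 unscaled and 0.14 with labelling spike-ins. Without scaling 33 miRNAs were called higher and 1 lower, and with spike-ins 21 and 2. Scaling to the median of detected miRNAs gave 16 higher and 11 lower calls. All 19 higher calls remained called without scaling and with spike-ins, and 16 remained with the median. Of the 49 lower calls 22 stayed negative without scaling and 43 with spike-ins. miR-451-5p and miR-146a-5p were the lower calls that remained called with spike-ins (-2.47 and -0.47).

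**Figure D3:**
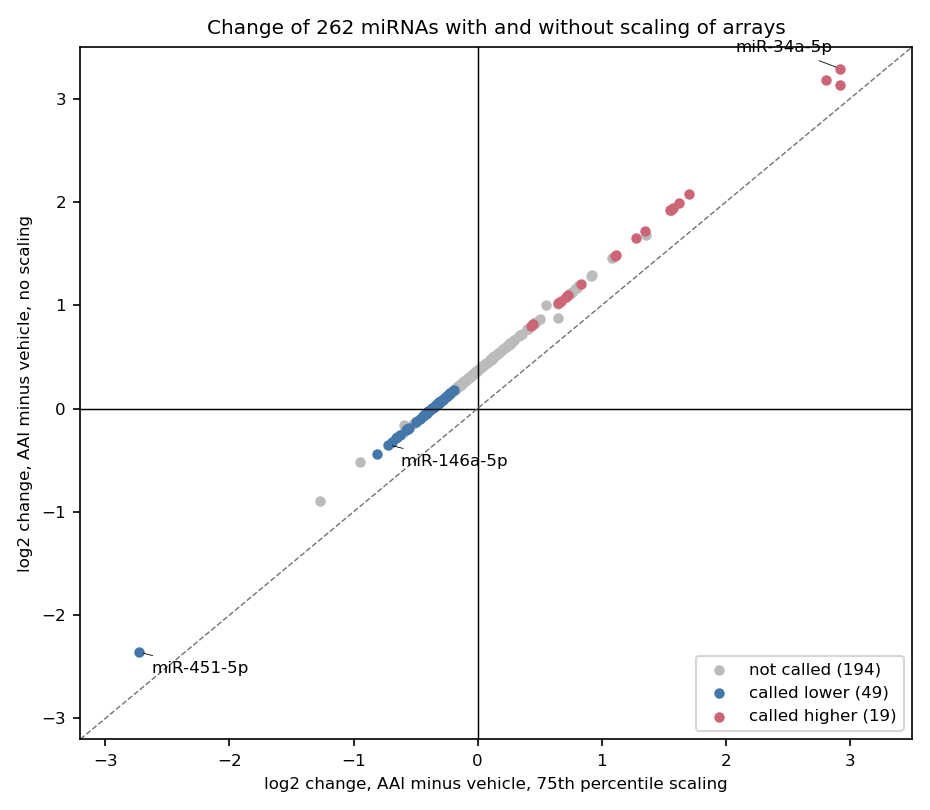
Log2 change of each of the 262 tested miRNAs, AAI minus vehicle, with scaling to the 75th percentile (x axis) against no scaling (y axis), coloured by the call on the x axis; the dashed line marks equal values. Most points lie above that line by about the same amount, so that the 19 higher calls stay above 0, while of the 49 lower calls 22 stay below 0 without scaling.

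With slide as a fixed block in limma, 90 miRNAs were called, 30 higher and 60 lower, and 45 of these were among the 68. Of the 19 higher calls 7 remained called and 18 stayed positive, and of the 49 lower calls 38 remained called and all 49 stayed negative. Besides the miR-34 members, miR-21-5p lost its call (0.60, 0.422). miR-21-3p remained called (2.44, 0.0265), as did miR-23a-5p (2.85, 0.0245), miR-6216 (3.03, 0.0123), miR-451-5p (-3.07, 0.0131), miR-146a-5p (-0.87, 0.0123) and miR-185-5p (-1.03, 0.0124). miR-192-3p (-0.78, 0.0875) and miR-341 (1.12, 0.0953) did not. In these values the vehicle side is vehicle array 5 alone, since vehicle arrays 1 to 4 were the only arrays on slide 3. The link to the AAI day 6 arrays runs through AAI day 4 arrays 1 and 2 on slide 2 and 3 to 5 on slide 1. Without AAI day 4 array 2, an alternative added after seeing the data, limma called 0. Calls gained or lost in this fit thus cannot tell a slide effect from the level of 1 vehicle kidney. With slide as a random block 60 were called, 54 of them among the 68.

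**Figure D4:**
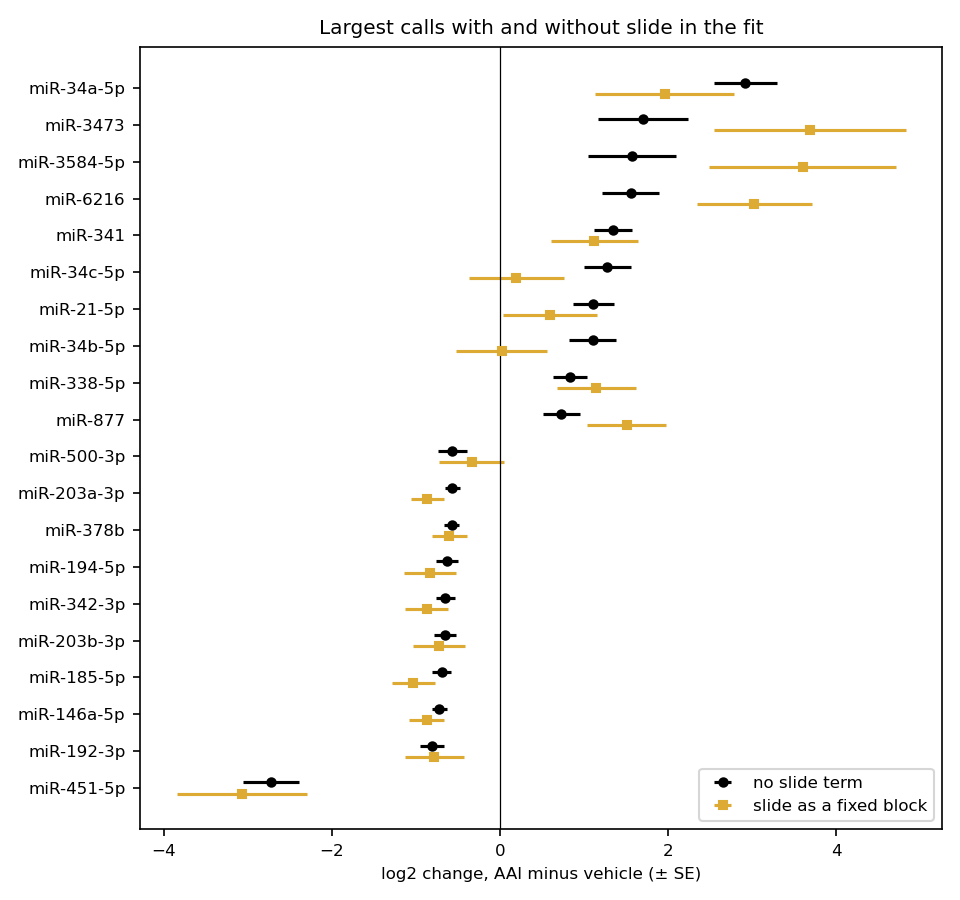
Log2 change (AAI minus vehicle, ± SE) of the 10 largest higher and 10 largest lower calls among miRNAs detected on all 10 arrays, without slide in the fit (black circles) and with slide as a fixed block (yellow squares). All 20 keep their sign, with miR-34c-5p and miR-34b-5p moving close to 0 (0.19 and 0.020) and miR-451-5p staying near -3 (-2.73 and -3.07). The fit with slide in effect uses vehicle array 5 as its only vehicle kidney.

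Within slide 1 the AAI day 6 arrays could be set against 3 AAI day 4 arrays. In limma 0 of 262 miRNAs were called there (0%), with 54 at an unadjusted p under 0.05. miR-451-5p was 2.12 log2 units lower at day 6 than at day 4 on that slide (change -2.12, adjusted p = 0.0536), and miR-34a-5p was 1.49 higher (0.201). Over all 5 arrays per group the mean level of miR-451-5p was -0.37 in vehicle, -0.42 at AAI day 2, -1.18 at day 4 and -3.10 at day 6. For miR-34a-5p the same means were -2.52, -1.72, -1.43 and 0.40, and for miR-21-5p 3.38, 3.51, 3.77 and 4.50. The vehicle kidneys were collected on day 6 and are shared by all 3 AAI days. miR-341 was as high at day 4 (-1.99) as at day 6 (-2.04), within the spread of its arrays.

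The difference between the arms of a hairpin within an array does not depend on scaling, unless a level was raised to the floor given with the processing below. Of 44 hairpins with both arms tested, this difference (3p minus 5p) changed in 9 by limma (20.5%), 6 higher and 3 lower, with 14 at an unadjusted p under 0.05. Both arms had a change of the same sign in 23 of the 44. For miR-21 the 3p arm gained 1.70 ± 0.21 log2 units on the 5p arm (adjusted p = 1.28e-05), in part from vehicle values under detection, and with normexp the difference was -0.81 and was not called. For miR-23a the difference changed by -2.96 ± 0.40 (1.83e-05), a value set against vehicle levels of miR-23a-5p that were not above background, and with normexp it was -0.084 and not called (0.821). On vehicle arrays 1 and 4 miR-23a-5p was at the floor (-7.43), so the miR-23a difference there does depend on scaling. For both hairpins the normexp offset shrinks the change of the dim arm more than that of the bright arm. miR-1839, annotated in RefSeq within Scarna15, a small Cajal body RNA gene, gained 0.65 ± 0.11 for its 3p arm (1.25e-04), with its 5p arm fallen (-0.44) and its 3p arm at 0.21. This was called in all 15 alternatives run for it, 10 of them with a single array left out, with limma adjusted p from 5.46e-06 to 0.0274. The software's total signal, the authors' deposited table, the other probe summary and the blocked fit without AAI day 4 array 2 were not run for arm differences. miR-339 (0.42 ± 0.10, 0.00599) and miR-196c (0.54 ± 0.15, 0.0137) showed the same shape, with a fall of the 5p arm and a 3p arm that was not called. Neither passed when slide was blocked (adjusted p = 0.222 and 0.207) or with normexp (0.069 and 0.11, adjusted p = 0.289 for both).

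Each of the remaining 4 arm calls ended on omission of certain single arrays. The call of miR-192 (-0.25 ± 0.08) ended when vehicle array 1, 2 or 4 or AAI array 2 or 5 was omitted (0.0566 to 0.0772), and its value turned to 0.12 with slide as a fixed block and 0.27 with normexp. That of miR-194 (0.74 ± 0.24) ended on omission of vehicle array 2, 3, 4 or 5 or AAI array 3 or 4 (0.0566 to 0.112). That of miR-20a (-0.49 ± 0.15) ended on omission of vehicle array 3 or 4 or AAI array 2 or 4 (0.0567 to 0.0744). That of miR-30b (0.79 ± 0.27) ended on omission of vehicle array 3, 4 or 5 or AAI array 3 or 4 (0.0671 to 0.112). miR-194-3p was detected on 2 vehicle and 3 AAI arrays and miR-20a-3p on 2 and 5, so these differences rest in part on values under detection.

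**Figure D5:**
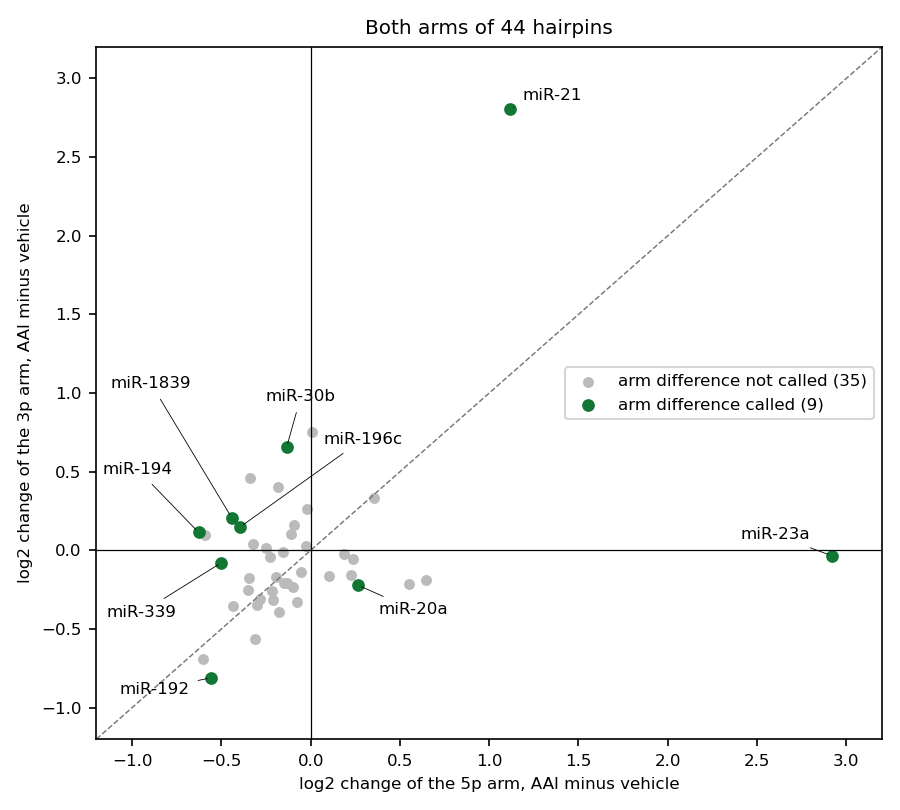
Log2 change (AAI minus vehicle) of the 3p arm against that of the 5p arm for 44 hairpins with both arms tested; the dashed line marks equal change of both arms. The 9 hairpins whose arm difference changed are green and named: miR-21 lies far above the line (1.11 and 2.81) and miR-23a far to its right (2.92 and -0.035).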

How the data were processed

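Scanner output came from Agilent Feature Extraction (version 10.7.1.1) per the file headers, and the intensity used is the deposited background-subtracted signal of each spot. The authors also deposited log2 values for the same arrays; how they were made is not given in the sources used here, so they served only as an alternative. RNA isolation and labelling followed the labels' protocols.

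For each probe the intensities of spots not marked as outliers were averaged, and probe means were summed to 1 signal for each miRNA. Signals were scaled by each array's 75th percentile over the 231 miRNAs detected on all 20 arrays, floored at 0.00578 and logged to base 2. Complete detection in any 1 of the 4 groups admitted 262 of 719 miRNAs to the test.

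Group means of all 20 arrays in 4 groups were fitted with limma 3.58.1 (R 4.3.3, data.table version 1.17.8; 16 residual degrees of freedom) and adjusted by Benjamini-Hochberg over all tested miRNAs, or over the 44 hairpins. Calls needed an adjusted p under 0.05. The scripts' tests were tested on simulated data. Array measures used two-sided exact permutation over 252 splits. The number of arrays limits the precision.

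Named were the 10 largest calls per direction detected on all 10 arrays, up to 5 per direction fully detected in 1 group and undetected in the other, called list members, their paralogs, arms and seed mates, and called arm pairs. Members, lists and tests were chosen with earlier results of these data known. Alternatives covered background, scaling, filters, probe summary, slide, replicate number and single arrays left out. The normexp alternative used an offset of 50. Replicate numbers did not pair the samples (correlations of deviations from -0.29 to 0.19).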

Additional observations from a re-analysis of the deposited data

Results flagged for a closer look

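Of 120 sets of 5 arrays examined for a value far from the other 4, 5 had one, where chance alone gives about 6. miR-338-5p was at -4.77 on vehicle array 4 against -5.70 to -5.44 on the other vehicle arrays. miR-877 was at -2.63 on the same array against -3.73 to -3.56. let-7d-5p was at 3.07 on vehicle array 5 against 2.95 to 2.97, a narrow range. miR-192-3p was at -3.69 on AAI array 4 against -4.38 to -4.21. The 75th percentile signal was 309.3 on AAI array 2 against 498.6 to 535.3.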

How the results depend on the processing

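The 68 calls (19 higher, 49 lower) became 24 (5 and 19) with normexp, 34 (33 and 1) without scaling, 27 with 11 lower by the median, 23 with 2 lower by spike-ins and 23 with 4 lower by the software's total signal. Slide as a fixed block gave 30 higher, and 0 in all, 0 higher and 0 lower without AAI day 4 array 2. Leaving out 1 array gave 58 to 84 calls, 16 to 23 higher and 41 to 65 lower. With replicate number as a block, where the numbers did not pair samples, there were 65 calls (18 and 47). The 9 arm calls became 1 with normexp, 3 with slide as a random block, 7 with the replicate block and 6 to 9 with 1 array left out.

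Without scaling these turned positive: miR-196b-5p 0.040, miR-107-3p 0.038, miR-196a-5p 0.055, let-7d-5p 0.019, miR-30e-3p 0.056, let-7b-5p 0.068, miR-214-3p 0.12, miR-15b-5p 0.087, miR-27b-3p 0.15, miR-16-5p 0.11, miR-23b-3p 0.14, miR-99b-5p 0.048, miR-100-5p 0.034, miR-103-3p 0.033, miR-181a-5p 0.12, miR-125a-5p 0.027, miR-125b-5p 0.18 and miR-99a-5p 0.060. With spike-ins miR-214-3p (0.0056), miR-27b-3p (0.032), miR-23b-3p (0.022), miR-181a-5p (0.010) and miR-125b-5p (0.065) did. By construction these settings move all values of an array together. The software's total signal reversed miR-34c-5p (-0.94), miR-34b-5p (-0.90), miR-338-5p (-0.51), miR-877 (-0.086), miR-203b-3p (0.034), miR-18a-5p (-1.85) and miR-125b-5p (0.027). The authors' deposited table reversed miR-338-5p (-1.15) and miR-489-3p (-2.60). Normexp, whose offset weighs most on dim miRNAs, reversed miR-338-5p (-0.061), miR-489-3p (-0.087) and the arm differences of miR-192 (0.27) and miR-21 (-0.81). Slide as a fixed block reversed miR-18a-5p (-0.30, and -0.24 without AAI day 4 array 2) and the miR-192 arm difference (0.12). For these the cause was not tested. Dim miRNAs near background, detected on part of the vehicle arrays, have the least certain folds.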
